A study of Mus musculus with 9 samples.

Results

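The colony-stimulating factors are the secreted proteins M-CSF, GM-CSF and G-CSF, encoded in the mouse by Csf1, Csf2 and Csf3, and their receptors are encoded by Csf1r, Csf2ra, Csf2rb, Csf2rb2 and Csf3r. These 8 genes were followed in neutrophils from chemically induced skin lesions, taking every probe that is not a control and carries a member's name in the scanner files. All 8 members were found among the 34797 gene names of the array, and 15 of its 55681 probes measured them.

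Neutrophils came from mice carrying benign papillomas or malignant skin tumors, and from the skin around each kind of lesion. All animals were FVB/N mice that received the carcinogen DMBA at an age of 6 and 13 weeks, and the tumor promoter PMA from week 1 until week 18 to 20 of a count whose start is not given, so no group was untreated. Gr-1bright cells were sorted from the dissociated tissue to a stated purity above 98%, and RNA of several mice was pooled for an array. The groups were papilloma skin (n = 2), papilloma (n = 3), tumor skin (n = 2) and tumor (n = 2), each sample on its own 1-colour Agilent mouse array.

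Colony-stimulating factors control how many granulocytes and macrophages the bone marrow makes and how long these cells live in tissue. G-CSF acts through Csf3r and drives neutrophil production, M-CSF and interleukin 34 act through Csf1r on the macrophage lineage, and GM-CSF acts through the chain Csf2ra paired with a shared beta chain, which relays the signal through JAK2 and STAT5. In the mouse the beta chain has a close relative, Csf2rb2, that serves interleukin 3.

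Values are log2 levels from the deposited table, whose column medians lay between 6.08 and 6.12. For 2 of the 9 columns the ranks of the values matched the scanner file of the same sample poorly: Spearman's rho over 55155 probes was 0.588 for papilloma skin 1 and 0.827 for tumor 1, and both columns were closest to the file of tumor 2 (0.924 and 0.947). The other columns had a rho from 0.931 to 0.980 with their own file. The columns of papilloma 2 and papilloma 3 were each closer to the other's file, which is of the same group. Whether columns or files were exchanged was not tested. The called member probes, Csf2, Csf2rb and the called counts are therefore given with all 9 columns and again without papilloma skin 1 and tumor 1. Between 43.5% and 63.5% of probes were well above background on 6 arrays, and 95%, 94.3% and 90.7% on those of papilloma skin 1, tumor 1 and tumor skin 1, whose spike-in slopes were 0.678, 0.894 and 0.876 against at least 1.04 on the others. The arrays lay on 3 slides, which each held more than 1 group. A column's slide is that of its own scanner file, so every within-slide difference and every fit with slide as a block rests on that assignment, which the ranks put in doubt for papilloma skin 1, tumor 1, papilloma 2 and papilloma 3.

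Csf1 was the only member called higher in both kinds of lesion than in the skin around them, and Csf3 and the beta chain Csf2rb2 were also called higher in papilloma than in papilloma skin. A probe was called when limma's adjusted p was at most 0.05, the log2 fold change at least 1 in size and the mean log2 level at least 6, a level that all 15 member probes reached. Between papilloma and papilloma skin 5 of the 15 probes were called, all of them higher, beside 3.18% of all 55681 probes called in either direction and 2.18% called higher. Between tumor and tumor skin 3 of the 15 were called, all higher and all of Csf1, beside 4.21% called in either direction and 2.71% called higher. These counts hold for the value table: of 6 settings that start from the scanner files, 5 gave 0 calls in papilloma and all 6 gave 0 in tumor with limma. Over all 55155 probes of those settings, ComBat called 3963 in papilloma and 122 in tumor, normexp called 2 and 0, and the other 4 called 0 in both. The unadjusted p from the value table was under 0.05 for 9 and 7 of the 15, beside 20.7% and 26.9% of all probes. Such p-values rest on the spread between these pooled arrays as it stands in the value table. The table may hold a slide correction that the model does not count, so the p-values may be too small. For Csf1 probe A_55_P2169669 in tumor over tumor skin the SE was 0.15 from the table. It was 1.29 from the scanner files with quantile normalization alone. The number of arrays also limits the precision of the p-values.

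Csf1, the gene of the macrophage growth factor M-CSF, was measured by 4 probes. The probe of its long transcript, A_51_P195506, read 14.24 and 14.37 in papilloma skin, 15.71, 15.58 and 15.67 in papilloma, 13.87 and 13.96 in tumor skin, and 15.27 and 15.31 in tumor. Every lesion sample thus lay above every skin sample, with no overlap between the 5 lesion and the 4 skin arrays. It lies on the minus strand at chr3:107544333-107544392 in mm9, and the 30 bases at its 3′ end are shown, all in lower case, to identify the stretch that was measured.
Csf1 long transcript: actatttccatgctagaaaatacatatttt
An overlapping pair of probes reads another transcript. They share 31 bases, of which 30 are shown, all in lower case because every base of the stretch is common to the pair; values of these 2 probes are therefore not independent readings.
Csf1 overlapping pair: cagctgcatcatatattgtcatatgttgag

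The first probe of that pair, A_55_P2169669 at chr3:107548521-107548580, read 10.97 and 11.05 in papilloma skin, 13.14, 13.14 and 13.37 in papilloma, 10.68 and 10.53 in tumor skin, and 13.16 and 13.05 in tumor. Its partner A_55_P2017914 read 11.04 and 10.99, then 12.97, 13.11 and 13.18, then 10.55 and 10.29, then 12.98 and 12.95 in the same order of groups. Both probes therefore separated lesion from skin in all samples. The log2 fold change of A_55_P2169669 was 2.21 ± 0.14 (SE) between papilloma and papilloma skin (adjusted p = 0.000241) and 2.50 ± 0.15 between tumor and tumor skin (adjusted p = 0.00043). For A_55_P2017914 the changes were 2.07 ± 0.14 (adjusted p = 0.000261) and 2.54 ± 0.15 (adjusted p = 0.00043). For the long-transcript probe they were 1.35 ± 0.12 (adjusted p = 0.000857) and 1.38 ± 0.13 (adjusted p = 0.00174). From the scanner files with ComBat the papilloma changes of A_55_P2169669, A_55_P2017914 and the long-transcript probe were 4.49, 4.28 and 2.02, all called. The tumor changes there were 1.71, 1.60 and 1.15 and were not called (adjusted p = 0.332, 0.327 and 0.194). Whether the transcripts changed by different amounts was not tested.

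The calls of these 3 probes held without the poorly matching columns, a fit that leaves 1 sample each of papilloma skin and tumor, so that the spread within these groups is taken from tumor skin and papilloma. The log2 fold changes were then 1.29, 2.17 and 2.09 in papilloma for A_51_P195506, A_55_P2169669 and A_55_P2017914 (adjusted p = 0.027, 0.0161 and 0.0186), and 1.39, 2.45 and 2.53 in tumor (adjusted p = 0.0238, 0.0151 and 0.0151). With slide as a block in the model the papilloma changes were 1.33, 2.18 and 2.08 and all were called, while in tumor the changes were 1.4, 2.55 and 2.53 and the long-transcript probe missed the threshold (adjusted p = 0.0566). If the slides are those of the scanner files, then within slide 1 papilloma 1 exceeded papilloma skin 1 by 1.47, 2.16 and 1.93, and tumor 1 exceeded tumor skin 1 by 1.4, 2.48 and 2.42. Within slide 2, papilloma 2 exceeded papilloma skin 2 by 1.21, 2.09 and 2.12. The log2 scanner signal, not normalized between arrays, gave 2.54, 3.53 and 3.26 for papilloma and 2.05, 2.69 and 2.47 for tumor within slide 1, and 2.34, 3.43 and 3.38 for papilloma within slide 2.

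The remaining Csf1 probe, A_55_P2017911, is listed on the array under an Ensembl transcript and lies at chr3:107553659-107553718 on the minus strand. It read 7.32 and 7.94 in papilloma skin, 8.64, 8.06 and 7.95 in papilloma, 6.92 and 8.11 in tumor skin, and 7.79 and 7.92 in tumor. The tumor and tumor skin samples overlapped, and the papilloma samples began just above papilloma skin. It was called in no comparison, with log2 fold changes of 0.59 ± 0.36 in papilloma (adjusted p = 0.414) and 0.34 ± 0.40 in tumor (adjusted p = 0.638).

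**Figure D1:**
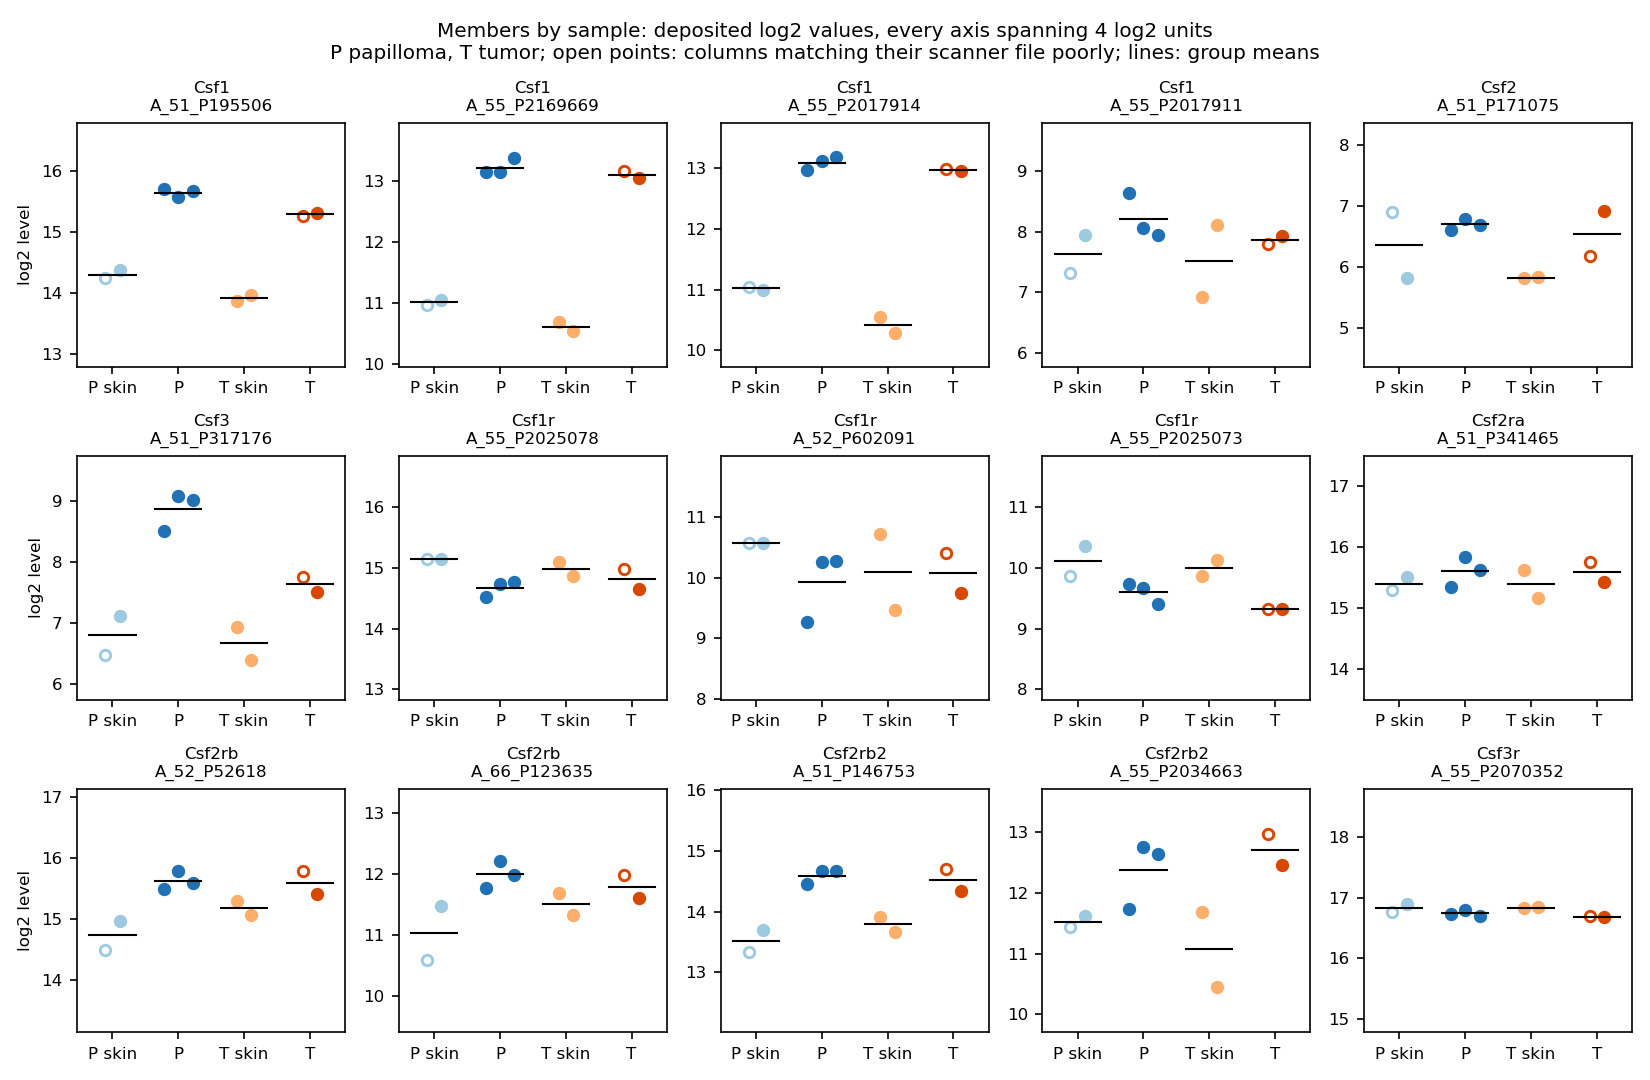
Deposited log2 level of each member probe in each sample (vertical axis, 4 log2 units in every panel) by group (horizontal axis), with lines at group means and open points for papilloma skin 1 and tumor 1. For 3 of the 4 Csf1 probes all lesion points stand above all skin points, and for Csf3 the papilloma points stand above all others.

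Csf3 encodes G-CSF, the main growth factor of neutrophils. Its probe A_51_P317176 lies at chr11:98564614-98564673 on the plus strand of mm9, and the first 30 of its 60 bases are printed to show which stretch of the transcript was measured.
Csf3: gggggacaagacatccctgtttaatattta
It read 6.48 and 7.12 in papilloma skin, 8.51, 9.09 and 9.02 in papilloma, 6.94 and 6.40 in tumor skin, and 7.76 and 7.51 in tumor. The 3 papilloma samples were above all 6 others, and both tumor samples were above all 4 skin samples. The spot was not well above background on 1 array, tumor skin 2. Csf3 rose by 2.07 ± 0.27 (SE) on the log2 scale in papilloma over papilloma skin (adjusted p = 0.00415). Without the poorly matching columns the change was 1.75 and no longer called (adjusted p = 0.0617); with slide as a block it was 2.12 and called (adjusted p = 0.0339), with replicate number as a block 2.0 and not called (adjusted p = 0.0641), and the within-slide differences were 2.03 and 1.97. From the scanner files the change was 1.83 with ComBat, and 1.11 with quantile normalization limited to arrays whose spike-in slope reached 0.9. That limit left 1 papilloma skin sample. From the log2 scanner signal without normalization between arrays, however, the difference within slide 1 had the other sign, at -1.69, while it was 3.16 within slide 2. The slide 1 value rests on the file of papilloma skin 1, which matches its column poorly. In tumor over tumor skin it was 0.97 ± 0.29 and missed the threshold (adjusted p = 0.0754), with a within-slide difference of 0.83.

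Csf2 encodes GM-CSF, a cytokine that T cells and stromal cells release in inflammation. Its probe A_51_P171075 read 6.90 and 5.82 in papilloma skin, 6.61, 6.79 and 6.69 in papilloma, 5.81 and 5.83 in tumor skin, and 6.17 and 6.91 in tumor. The papilloma samples lay between the papilloma skin samples, and both tumor samples were above tumor skin. The spot was not well above background on 2 arrays, papilloma skin 2 and tumor skin 2. Csf2 was called in no comparison with all columns, with log2 fold changes of 0.34 ± 0.32 in papilloma (adjusted p = 0.613) and 0.72 ± 0.35 in tumor (adjusted p = 0.228). Without the poorly matching columns, where tumor 2 was the only tumor sample left, the tumor value was 1.09 and was called (adjusted p = 0.034). The papilloma value was 0.87 without papilloma skin 1 and -0.20 without papilloma skin 2.

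Csf2rb, the signalling chain shared by the receptors of GM-CSF, interleukin 3 and interleukin 5, and Csf2rb2, its relative for interleukin 3, are close copies, so their probes were aligned. Over 30 bases the probes A_52_P52618 and A_51_P146753 were identical at 27, and the aligned stretch is printed with the 3 mismatches in capitals because cross-hybridization between the copies was not tested. The probes lie at chr15:78181168-78181227 on the plus strand and chr15:78113126-78113185 on the minus strand of mm9.
Csf2rb: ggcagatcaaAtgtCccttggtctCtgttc
Csf2rb2: ggcagatcaaGtgtTccttggtctAtgttc

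Csf2rb2 probe A_51_P146753 read 13.33 and 13.69 in papilloma skin, 14.45, 14.67 and 14.66 in papilloma, 13.91 and 13.67 in tumor skin, and 14.70 and 14.34 in tumor. All 5 lesion samples were above all 4 skin samples. Csf2rb2 rose by 1.08 ± 0.18 (SE) on the log2 scale in papilloma over papilloma skin (adjusted p = 0.0114), whereas in tumor the change of 0.73 ± 0.20 missed the threshold (adjusted p = 0.0537). The papilloma call was lost without the poorly matching columns (0.90, adjusted p = 0.0776), with slide as a block (1.10, adjusted p = 0.0827), with replicate number as a block (1.05, adjusted p = 0.128), with the median over the gene's probes (0.96, adjusted p = 0.0808), and when papilloma skin 1 or papilloma 3 alone was left out (0.90 and 1.05, adjusted p = 0.0767 and 0.0513). With that median Csf2rb2 was called in tumor instead (1.19, adjusted p = 0.0455). Within slides 1 and 2 papilloma exceeded its skin by 1.12 and 0.97, and by 1.21 and 1.81 from the log2 scanner signal without normalization.

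The other Csf2rb2 probe, A_55_P2034663, read 11.44 and 11.61 in papilloma skin, 11.73, 12.75 and 12.63 in papilloma, 11.69 and 10.45 in tumor skin, and 12.96 and 12.46 in tumor. Lesion samples were again above skin samples, but papilloma 1 stood only just above them, and the tumor skin samples differed by more than 1 log2 unit. Its changes of 0.85 ± 0.41 in papilloma (adjusted p = 0.29) and 1.64 ± 0.45 in tumor (adjusted p = 0.0558) were not called, but the tumor value was called without tumor skin 1 (2.26, adjusted p = 0.0278) and without papilloma 1 (1.64, adjusted p = 0.0428), and when only probes well above background were tested (adjusted p = 0.048). Csf2rb probe A_52_P52618 read 14.49 and 14.97 in papilloma skin, 15.49, 15.78 and 15.59 in papilloma, 15.29 and 15.07 in tumor skin, and 15.78 and 15.41 in tumor. All lesion samples were higher than the skin samples, by 0.89 ± 0.20 in papilloma, where the adjusted p of 0.0349 passed but the fold minimum was missed, and by 0.41 ± 0.21 in tumor (adjusted p = 0.26). The second Csf2rb probe, A_66_P123635, ranged from 10.58 to 12.21, with changes of 0.96 ± 0.28 (adjusted p = 0.0895) and 0.29 ± 0.31 (adjusted p = 0.594). Both Csf2rb probes were called in papilloma when papilloma skin 2 was left out (1.13 and 1.41, adjusted p = 0.0447 and 0.0395). Without the poorly matching columns the changes were 0.65 and 0.52 in papilloma (adjusted p = 0.158 and 0.345) for A_52_P52618 and A_66_P123635.

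The promoters of Csf1 and Csf2rb2 are printed because both genes were called in papilloma. RefSeq promoter sequence was at hand for 5 of the 8 members, and the 250 bases before the start were searched on both strands for AP-1, STAT, C/EBP and TATA motifs. Of 32851 promoters of the same length, 6.75%, 7.02%, 10.2% and 12.4% held them. A match was found in 1 of the 5 members, a STAT motif 15 bases before the start of Csf2rb2, shown in capitals; the Csf1 window holds none of these motifs. Coordinates are chr3:107760470-107760719 and chr15:78305722-78305971 in GRCm38.p6, both on the minus strand. A match or its lack is a description of these letters.
Csf1 promoter: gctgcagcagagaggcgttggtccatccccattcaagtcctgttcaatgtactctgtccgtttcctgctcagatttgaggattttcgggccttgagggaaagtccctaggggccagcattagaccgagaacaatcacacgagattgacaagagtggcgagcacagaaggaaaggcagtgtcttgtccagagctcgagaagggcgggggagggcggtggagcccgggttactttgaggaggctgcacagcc
Csf2rb2 promoter: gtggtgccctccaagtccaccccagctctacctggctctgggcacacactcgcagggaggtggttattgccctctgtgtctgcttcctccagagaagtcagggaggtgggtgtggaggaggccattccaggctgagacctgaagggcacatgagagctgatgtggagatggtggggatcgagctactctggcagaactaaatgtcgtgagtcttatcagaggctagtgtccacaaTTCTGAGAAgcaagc

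Csf2ra, the chain that binds GM-CSF, varied little between the groups. Its probe A_51_P341465 read 15.29 and 15.51 in papilloma skin, 15.35, 15.83 and 15.62 in papilloma, 15.62 and 15.16 in tumor skin, and 15.76 and 15.42 in tumor. The groups overlapped, and the log2 fold change was 0.20 ± 0.21 in papilloma (adjusted p = 0.653) and 0.20 ± 0.23 in tumor (adjusted p = 0.631).

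Csf1r, the receptor tyrosine kinase for M-CSF and interleukin 34, was measured by 3 probes. A_55_P2025078 read 15.14 and 15.15 in papilloma skin, 14.52, 14.74 and 14.76 in papilloma, 15.10 and 14.86 in tumor skin, and 14.98 and 14.65 in tumor. Papilloma samples were below papilloma skin and tumor overlapped tumor skin, with changes of -0.47 ± 0.16 (adjusted p = 0.129) and -0.17 ± 0.17 (adjusted p = 0.582). A_55_P2025073 read lower in every lesion sample than in its skin, with changes of -0.51 ± 0.19 (adjusted p = 0.165) and -0.67 ± 0.20 (adjusted p = 0.0754). A_52_P602091, whose 60 bases span 361 bases of genome, ranged from 9.27 to 10.72 and overlapped in tumor, with changes of -0.64 ± 0.43 (adjusted p = 0.449) and -0.02 ± 0.47 (adjusted p = 0.982). None of the 3 was called by limma.

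Csf3r, the G-CSF receptor that marks granulocytes, was read by A_55_P2070352 at 16.77 and 16.89 in papilloma skin, 16.73, 16.79 and 16.70 in papilloma, 16.83 and 16.84 in tumor skin, and 16.69 and 16.68 in tumor. The tumor samples were just below all others, and the changes were -0.09 ± 0.12 in papilloma (adjusted p = 0.719) and -0.15 ± 0.13 in tumor (adjusted p = 0.496). The probe is not particular to the gene: words of 16 letters in it are shared with 10 probes of other gene names. Such words were also shared with 2 probes for Csf2rb2 probe A_51_P146753, and with 1 probe each for Csf3, Csf2rb probe A_52_P52618 and Csf1 probe A_55_P2017911.

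**Figure D2:**
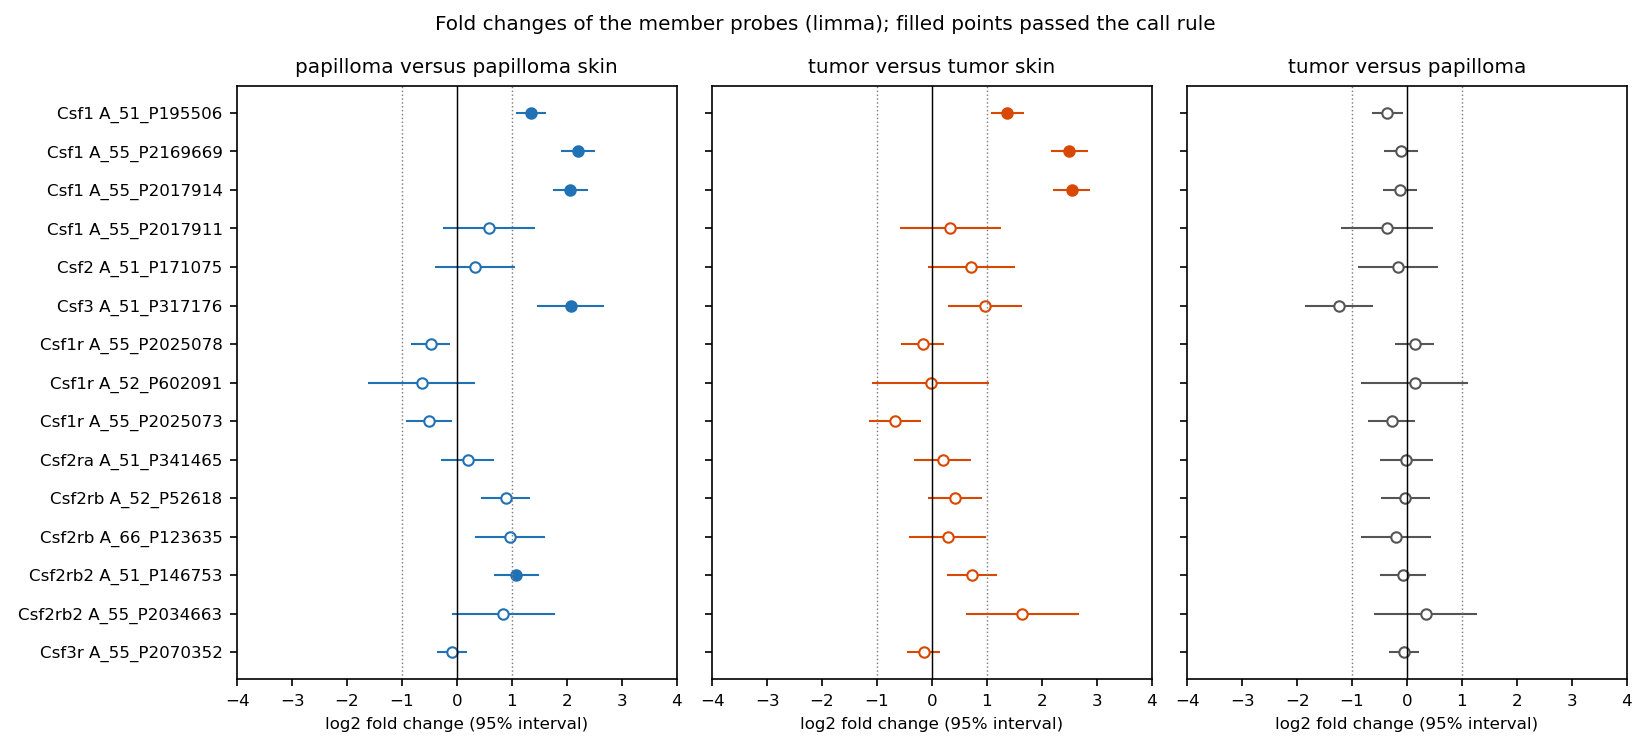
Log2 fold change of each member probe with its 95% interval from limma (horizontal axis), for papilloma over papilloma skin, tumor over tumor skin and tumor over papilloma; filled points were called and dotted lines mark a change of 1. The intervals of 3 Csf1 probes lie above 1 in both lesions, and no point is filled in tumor over papilloma.

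The question of how malignant lesions differ from benign ones is answered by tumor against papilloma, which uses the same arrays as both comparisons above. Limma called 0 of the 15 member probes there, beside 0.447% of all probes. An unadjusted p under 0.05 was found for 2 member probes, beside 14.4% of all probes. The member count was 0 in every other setting that kept replicates in each group. Of these, the scanner settings and slide as a block called 0 of all probes too, and the replicate block called 1. A member count of 0 there shows no stability. No level minimum and no fold minimum called 287 and 300 of all probes, but they reuse the same fit. In it the smallest adjusted p of a member was 0.106, so their member count of 0 was fixed in advance. Csf3 was 7.76 and 7.51 in tumor against 8.51, 9.09 and 9.02 in papilloma, a change of -1.24 ± 0.27 that failed the correction (adjusted p = 0.106). The long-transcript Csf1 probe had a change of -0.36 ± 0.12 (adjusted p = 0.248), and the overlapping pair -0.11 ± 0.14 and -0.12 ± 0.14 (adjusted p = 0.737 and 0.707).

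The difference between the lesion effects, tumor over its skin less papilloma over its skin, was tested in the same model. It was called by limma for 0 of the 15 probes, beside 0.0269% of all probes. An unadjusted p under 0.05 was found for 2 member probes, beside 14.7% of all probes. Every other setting that kept replicates in each group gave 0 for the members. Of these, the scanner settings and both blocks, slide and replicate number, called 0 of all probes too, so their 0 says nothing about the members. Without a level or fold minimum the same fit is reused, so that 0 was fixed in advance. For Csf3 the difference was -1.10 ± 0.40 (adjusted p = 0.27) and for Csf2rb2 probe A_51_P146753 -0.35 ± 0.27 (adjusted p = 0.581), so the calls in papilloma alone do not show that the lesions differ. Between the skins, limma called 0 of the 15 probes, beside 0.260% of all probes. Every other setting that kept replicates in each group gave 0 for the members. Of these, the scanner settings and both blocks called 0 of all probes too, so their 0 says nothing about the members. The 0 without a level or fold minimum was again fixed in advance. An unadjusted p under 0.05 was found for 3 member probes, beside 22.7% of all probes. That share is no smaller than the 3 of 15, which were Csf1 probes that read lower in tumor skin than in papilloma skin by values of -0.39, -0.41 and -0.60 (adjusted p = 0.155, 0.17 and 0.09).

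**Figure D3:**
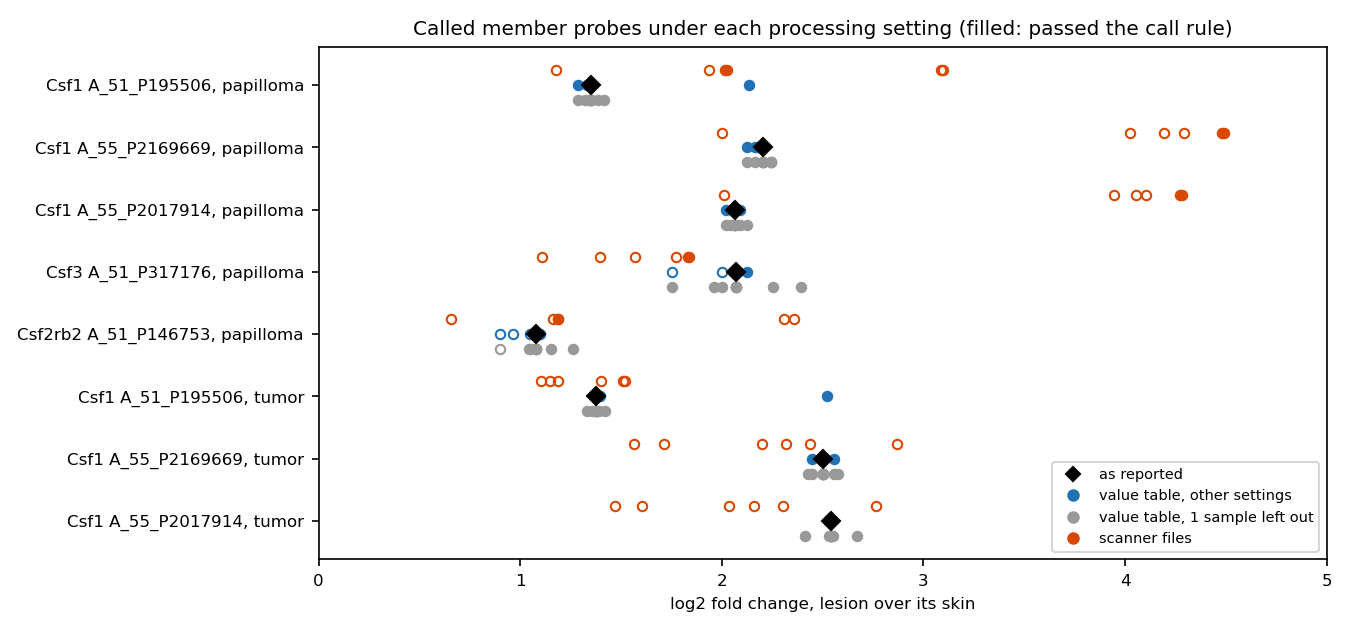
Log2 fold change (horizontal axis) of each called member probe under every processing setting, with diamonds for the values given above, blue for other settings on the value table, grey with 1 sample left out and orange from the scanner files; filled marks were called. All values are above 0, and most of the orange marks are open.

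The pathway around the factors was described with a list of 59 genes, of which 57 had a probe by name and 55 reached the mean level of 6; each gene was read by its probe of the highest mean level. In papilloma over papilloma skin 9 of the 57 rose and 4 fell, with a median log2 fold change of -0.04 beside -0.01 over all probes. In tumor over tumor skin 8 rose and 2 fell, with a median of -0.11 beside -0.02. Of all 55681 probes 1212 were called higher and 557 lower in papilloma, and 1507 and 839 in tumor, the background for these counts and those of the gene lists below. With replicate number in the model the pathway counts were 4 and 2 in papilloma and 3 and 1 in tumor. That model called 396 of all probes higher and 156 lower in papilloma, and 579 and 158 in tumor. Without the poorly matching columns the counts were 3 and 1 in papilloma and 5 and 2 in tumor, and with slide as a block 5 and 2 in papilloma and 1 and 1 in tumor. Over all probes these settings called 668 higher and 350 lower in papilloma and 1128 and 631 in tumor without the columns, and 674 and 307 in papilloma and 170 and 39 in tumor with the block. From the scanner files ComBat gave 13 and 2 in papilloma and 1 and 0 in tumor, and the other 5 settings gave 0 by limma in both lesions; the papilloma medians of these 6 settings ran from 0.01 to 0.98. With papilloma skin 1 left out the papilloma counts were 4 and 1 and with papilloma skin 2 left out 5 and 3, while the tumor counts were 3 and 1 without tumor 2.

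Among the negative regulators of cytokine signalling, 3 of 10 rose in each lesion and 1 fell in papilloma. Cish, an inhibitor induced by STAT5, read 10.43 and 10.18 in papilloma skin, 12.29, 11.91 and 12.72 in papilloma, 9.50 and 9.52 in tumor skin, and 11.77 and 11.21 in tumor. Every lesion sample was above every skin sample, and Cish rose by 2.0 ± 0.26 in papilloma (adjusted p = 0.004) and 1.98 ± 0.28 in tumor (adjusted p = 0.0064). Socs1, an inhibitor of JAK kinases, rose by 1.12 in papilloma (adjusted p = 0.0153) and 1.55 in tumor (adjusted p = 0.00618). Socs3, which restrains the G-CSF receptor and is named here after its values were seen, rose by 1.11 and 1.07 (adjusted p = 0.0112 and 0.0168). Dok2, an adaptor that dampens kinase signals, fell by 1.68 in papilloma (adjusted p = 0.0116), but its change was above 0 in 4 of the settings that start from the scanner files, with values from 0.05 to 0.45.

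Among 12 known response genes, 5 rose in each lesion; of these Ccl17 in papilloma (1.06, adjusted p = 0.0105) and Bcl2a1d in tumor (1.11, adjusted p = 0.00646) are named after their values were seen. Bcl2l1, which encodes the survival protein Bcl-xL, read 12.50 and 13.11 in papilloma skin, 14.89, 15.15 and 14.84 in papilloma, 13.55 and 13.50 in tumor skin, and 15.20 and 14.95 in tumor. It was higher in all lesion samples than in all skin samples, by 2.16 ± 0.20 in papilloma (adjusted p = 0.000972) and 1.55 ± 0.22 in tumor (adjusted p = 0.00652). Il1rn, the interleukin 1 receptor antagonist, rose by 1.76 and 1.52 (adjusted p = 0.00318 and 0.00829), and Cd274, the checkpoint ligand PD-L1, by 1.35 and 1.39 (adjusted p = 0.0108 and 0.013). Ccnd1, a cyclin of the cell cycle, rose by 2.18 in papilloma (adjusted p = 0.0224) and had a value of 1.74 in tumor (adjusted p = 0.0532).

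Of the related ligands and receptors, Il34, the other ligand of Csf1r, read 7.10 and 6.48 in papilloma skin, 8.10, 8.5 and 8.83 in papilloma, 7.23 and 6.27 in tumor skin, and 7.63 and 7.56 in tumor. Its papilloma samples were above the rest, a rise of 1.69 ± 0.33 over papilloma skin (adjusted p = 0.022) beside 0.84 ± 0.36 in tumor (adjusted p = 0.176). Il5ra, the interleukin 5 receptor chain that pairs with Csf2rb, fell by 1.95 in papilloma and by 1.64 in tumor (adjusted p = 0.000428 and 0.00174). Pik3cd, a lipid kinase subunit, fell by 1.34 in tumor (adjusted p = 0.0273), and Cebpe, a transcription factor of late granulocyte maturation, fell by 1.70 in papilloma (adjusted p = 0.00753). Flt3l, a cytokine of dendritic cells named after its values were seen, fell by 1.09 in papilloma (adjusted p = 0.0169). The call of Flt3l was lost without papilloma skin 1, where its change missed the fold minimum. The 4 signal transducers of the STAT family on the list were called in neither lesion. Cebpb and Mcl1, 2 genes of high level that were not called, had changes of 0.49 and 0.66 in papilloma (adjusted p = 0.187 and 0.121).

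Single samples decided many of these calls. The calls of Cish, Bcl2l1 and Il5ra in both lesions and of Il1rn in papilloma were kept whichever sample was left out. In papilloma, Dok2, Cebpe and Cd274 lost the call without papilloma skin 1 (changes of -1.22, -1.41 and 0.996), Il34 without papilloma skin 2, papilloma 2 or papilloma 3 (1.37, 1.68 and 1.51), and Ccnd1 without papilloma skin 1, papilloma skin 2, papilloma 1 or papilloma 3 (2.45, 1.91, 1.92 and 2.09). Socs1 lost it without papilloma skin 1, papilloma skin 2, papilloma 2 or papilloma 3 (1.15, 1.09, 0.995 and 1.11), and Socs3 without papilloma skin 1 or papilloma skin 2 (1.03 and 1.19). In tumor, leaving out tumor 2 removed the calls of Socs1, Socs3, Il1rn, Cd274 and Pik3cd (1.56, 1.12, 1.61, 1.38 and -1.09). There Socs3 also lost it without tumor skin 2 or tumor 1 (0.83 and 1.02), Cd274 without tumor skin 1 or tumor 1 (1.31 and 1.41), and Pik3cd without tumor skin 1, papilloma 3 or tumor 1 (-0.997, -1.34 and -1.59). Ccnd1 gained a tumor call without tumor skin 2 or papilloma 2 (2.26 and 1.74). Without both poorly matching columns the papilloma calls left were Bcl2l1, Il1rn, Cish and Il5ra (1.85, 1.41, 2.12 and -1.96). In tumor, where this fit leaves 1 sample, Cish, Socs1, Socs3 and Pik3cd missed the threshold with changes of 1.70, 1.54, 1.02 and -1.59.

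**Figure D4:**
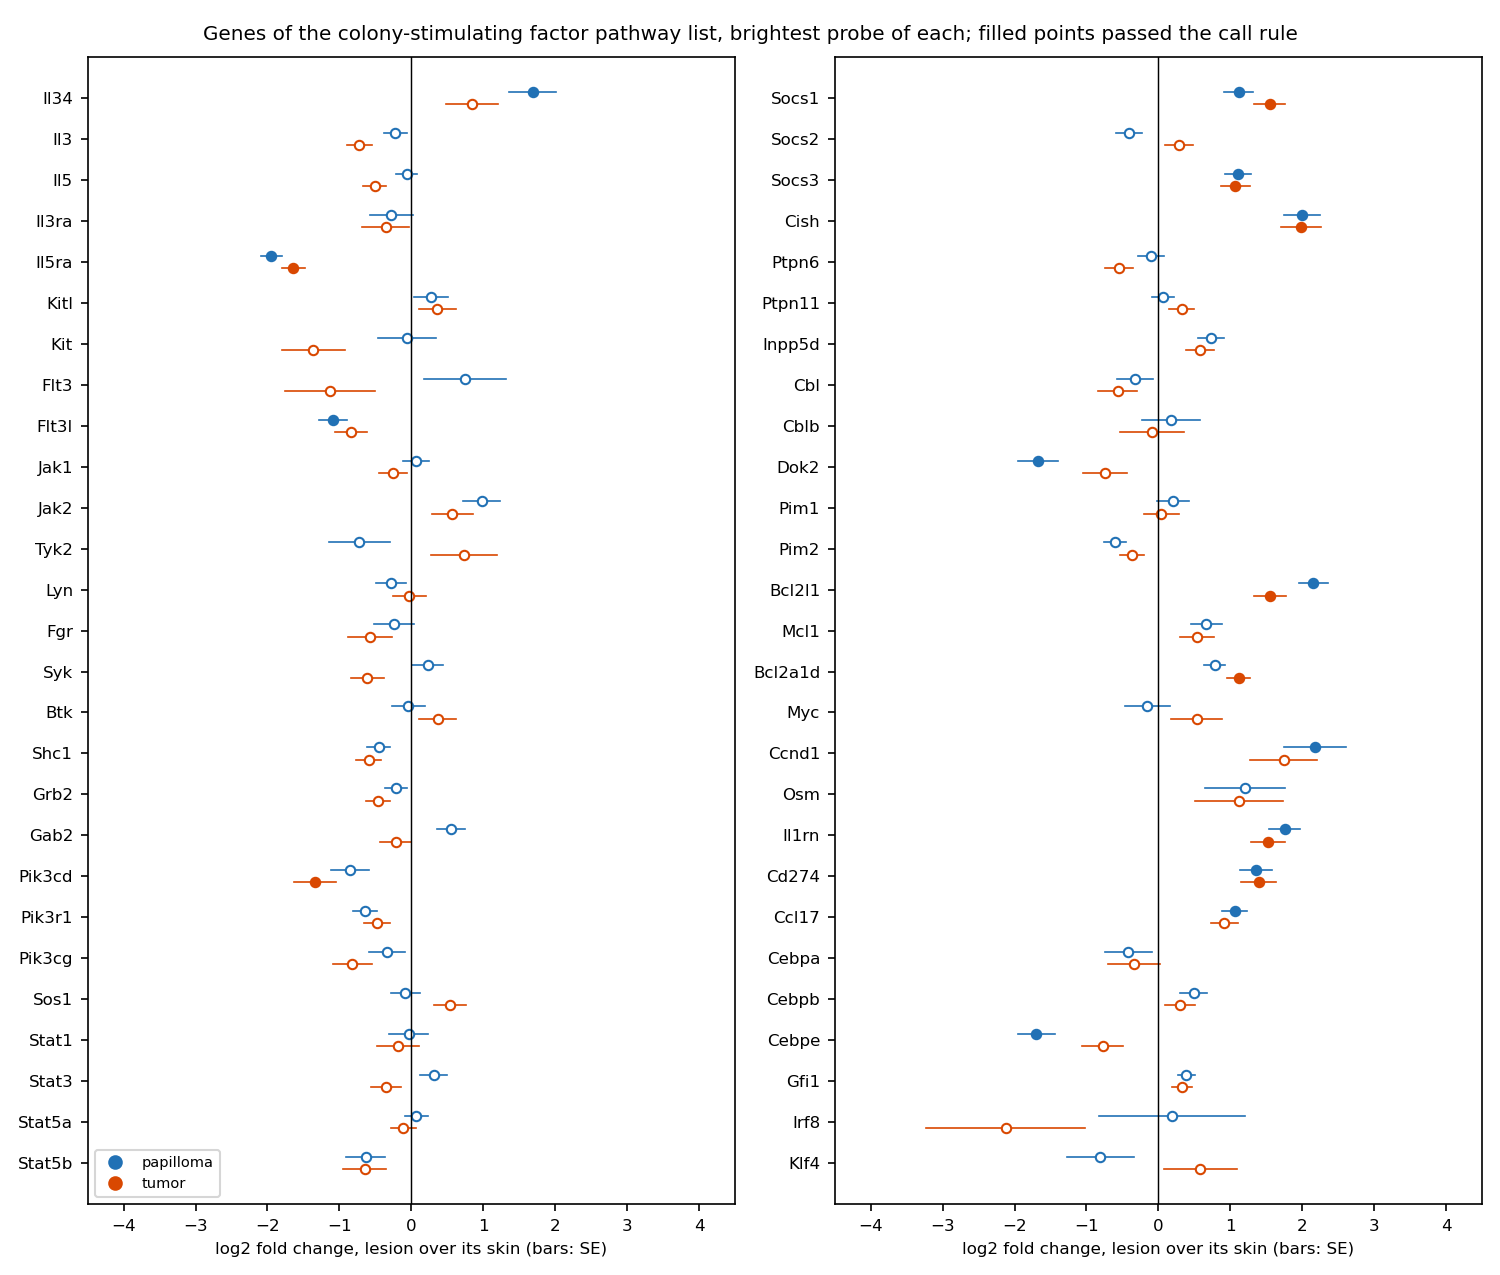
Log2 fold change with its SE (horizontal axis) of pathway genes in papilloma over papilloma skin (blue) and tumor over tumor skin (orange); filled points were called. Cish, Socs1, Socs3, Bcl2l1, Il1rn and Cd274 are filled to the right of 0 in both lesions, and Il5ra is filled to the left of 0 in both.

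The samples that were high for a member were compared with those of the other named genes, with Pearson's r over the 9 samples as a description. Cish, Il1rn and Cd274 followed the long-transcript Csf1 probe most closely (r = 0.970, 0.969 and 0.966). Csf3 was most like Il1rn, Itgax and Il34 (r = 0.963, 0.951 and 0.920), and Csf2rb2 most like Bcl2l1, Csf2rb and Mcl1 (r = 0.974, 0.962 and 0.951). Csf2rb was most like Csf2rb2, Mcl1 and Bcl2l1 (r = 0.962, 0.948 and 0.946). The receptors Csf1r, Csf2ra and Csf3r were most like Cebpe (r = 0.873), Mcl1 (r = 0.819) and Ccr3 (r = 0.827), and Csf2 was most like Col1a1 (r = 0.829). All samples share the grouping into lesion and skin, so these coefficients carry that split.

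The sorted cells were checked against markers. S100a8 and S100a9, the calprotectin subunits that fill neutrophils, ranged over the 9 samples from 17.88 to 18.22 and from 18.45 to 18.63, and all 15 neutrophil genes were well above background on every array. The highest value of a column ran from 18.56 to 18.95. S100a9 thus lay close to the top of the columns, which limits what its narrow range can show. Ly6g, an antigen that the Gr-1 antibody binds, read 10.27 and 10.99 in papilloma skin, 9.30, 9.70 and 9.66 in papilloma, 12.65 and 12.22 in tumor skin, and 10.74 and 9.95 in tumor. It fell by 2.09 ± 0.33 in tumor against tumor skin (adjusted p = 0.00894). Of the 15 neutrophil genes limma called 5 lower in papilloma and 6 in tumor, the granule genes Camp, Ngp, Ltf and Mmp8 in both and Mpo in papilloma. The summed level ran from 19.61 to 19.85 in the lesions and from 19.93 to 20.25 in the skins, with S100a9 the most abundant. In a bulk sample, fewer cells of a type and less RNA per cell cannot be told apart.

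Markers of other cells were also read, and those named here that are neither a list's most abundant gene nor a defining marker were chosen after their values were seen. Endothelial genes rose in 6 of 8 in papilloma and 3 of 8 in tumor (Cdh5, Esam and Egfl7), or 3 and 2 without the poorly matching columns, with Kdr the most abundant. Their sum was 13.2 and 12.89 in papilloma skin, 14.0, 13.35 and 13.64 in papilloma, 13.2 and 14.04 in tumor skin, and 12.63 and 13.0 in tumor, where both samples were below tumor skin. Cdh5, a junction protein of vessels, rose by 2.57 and 2.39 (adjusted p = 0.0145 and 0.0237), although it was well above background on 7 arrays, and Tie1 by 1.61 in papilloma (adjusted p = 0.0282) with the same number of such arrays. Fibroblast genes rose in 2 of 9 in papilloma (Fbn1 and Postn), and Dcn fell by 1.38 in tumor (adjusted p = 0.0452). Without the poorly matching columns 4 rose in papilloma, and in tumor 2 rose and 0 fell by limma. All columns gave a summed level of 15.78, 15.27 and 15.48 in papilloma, 14.83 and 13.75 in papilloma skin, 13.13 and 13.30 in tumor skin, and 12.64 and 14.02 in tumor. Papilloma thus had the highest sums, and the tumor samples lay on either side of tumor skin; the most abundant gene was Col1a2, and Pdgfra was well above background on 7 arrays. Keratinocyte genes rose in 1 of 12 in papilloma and 2 of 12 in tumor, Krt6a in both lesions by 3.38 and 3.74 (adjusted p = 0.00641 and 0.00653) and Krt14 in tumor by 3.29 (adjusted p = 0.0348). Trp63 was lower in all lesion samples than in all skin samples, with changes of -0.47 and -0.39 that were not called (adjusted p = 0.0659 and 0.113). The summed keratinocyte level was 13.97 and 13.43 in papilloma skin, 15.29, 14.09 and 14.11 in papilloma, 13.31 and 14.40 in tumor skin, and 13.88 and 15.64 in tumor, and Krt5 was the most abundant. Stromal and epithelial cells can make Csf1 and Csf3, and the part of such cells in the member values was not tested.

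Adgre1, a macrophage surface receptor, fell by 3.09 in papilloma and by 2.04 in tumor (adjusted p = 0.000121 and 0.00108), and also by 1.12 in tumor skin against papilloma skin (adjusted p = 0.047). The complement genes C1qa, C1qb and C1qc lay between 6.37 and 8.66 and were not called, although C1qa had a change of 0.92 in papilloma whose adjusted p of 0.0372 passed while the fold minimum was missed. Of 14 monocyte and macrophage genes, 0 rose by limma in either lesion while 2 fell in papilloma (Adgre1 and Lyz2) and 1 in tumor (Adgre1); the sum ran from 14.24 in tumor 1 to 15.77 in papilloma skin 1, with Cd68 the most abundant. Eosinophil genes fell in 5 of 8 in both lesions (Ccr3, Il5ra, Ear1, Ear2 and Alox15) and 1 rose in tumor, Siglec5, the most abundant, by 1.38 (adjusted p = 0.0138); Ccr3 fell by 2.29 and fell by 2.03 (adjusted p = 0.000324 and 0.00131). The eosinophil granule genes Epx and Prg2 were well above background on 3 and 4 arrays, among them those of papilloma skin 1, tumor skin 1 and tumor 1, where at least 90.7% of all probes carried that flag; the sum ran from 11.83 to 14.15.

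Among 10 dendritic cell genes 1 rose in papilloma, Itgax, the most abundant, by 1.87 (adjusted p = 0.00434), and Cd74 fell by 2.46 in tumor (adjusted p = 0.022); the defining genes Xcr1, Clec9a and Cd207 were well above background on 3, 4 and 7 arrays, and Zbtb46 and Flt3 on all 9. Of 9 T cell genes Icos rose by 2.64 (adjusted p = 0.0157) and Cd3d fell by 1.41 (adjusted p = 0.00407) in tumor, while Cd3e and Cd3g were called in neither lesion; Cd4 was the most abundant. Mast cell genes were called by limma in 0 of 8 in either lesion; Hdc, the most abundant, ranged from 17.03 to 17.47, and Cpa3 and Tpsb2 were above background on all arrays and Fcer1a on 6. The summed levels ran from 14.06 to 15.6 for dendritic cell genes, from 13.0 to 13.88 for T cell genes and from 17.05 to 17.49 for mast cell genes. The mast cell sum is nearly that of Hdc alone and says little about the other genes of that list. Without the poorly matching columns the genes called lower in papilloma and tumor were 4 and 7 for neutrophils, 1 and 1 for monocytes and macrophages, 5 and 5 for eosinophils, 0 and 0 for dendritic cells, 1 and 1 for T cells and 0 and 1 for mast cells. Those called higher were 1 dendritic cell gene in papilloma, 1 T cell gene in tumor and 2 keratinocyte genes in each lesion. All probes gave 350 and 631 lower and 668 and 1128 higher at that setting. The share of each of these cell types in the member values was not tested.

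**Figure D5:**
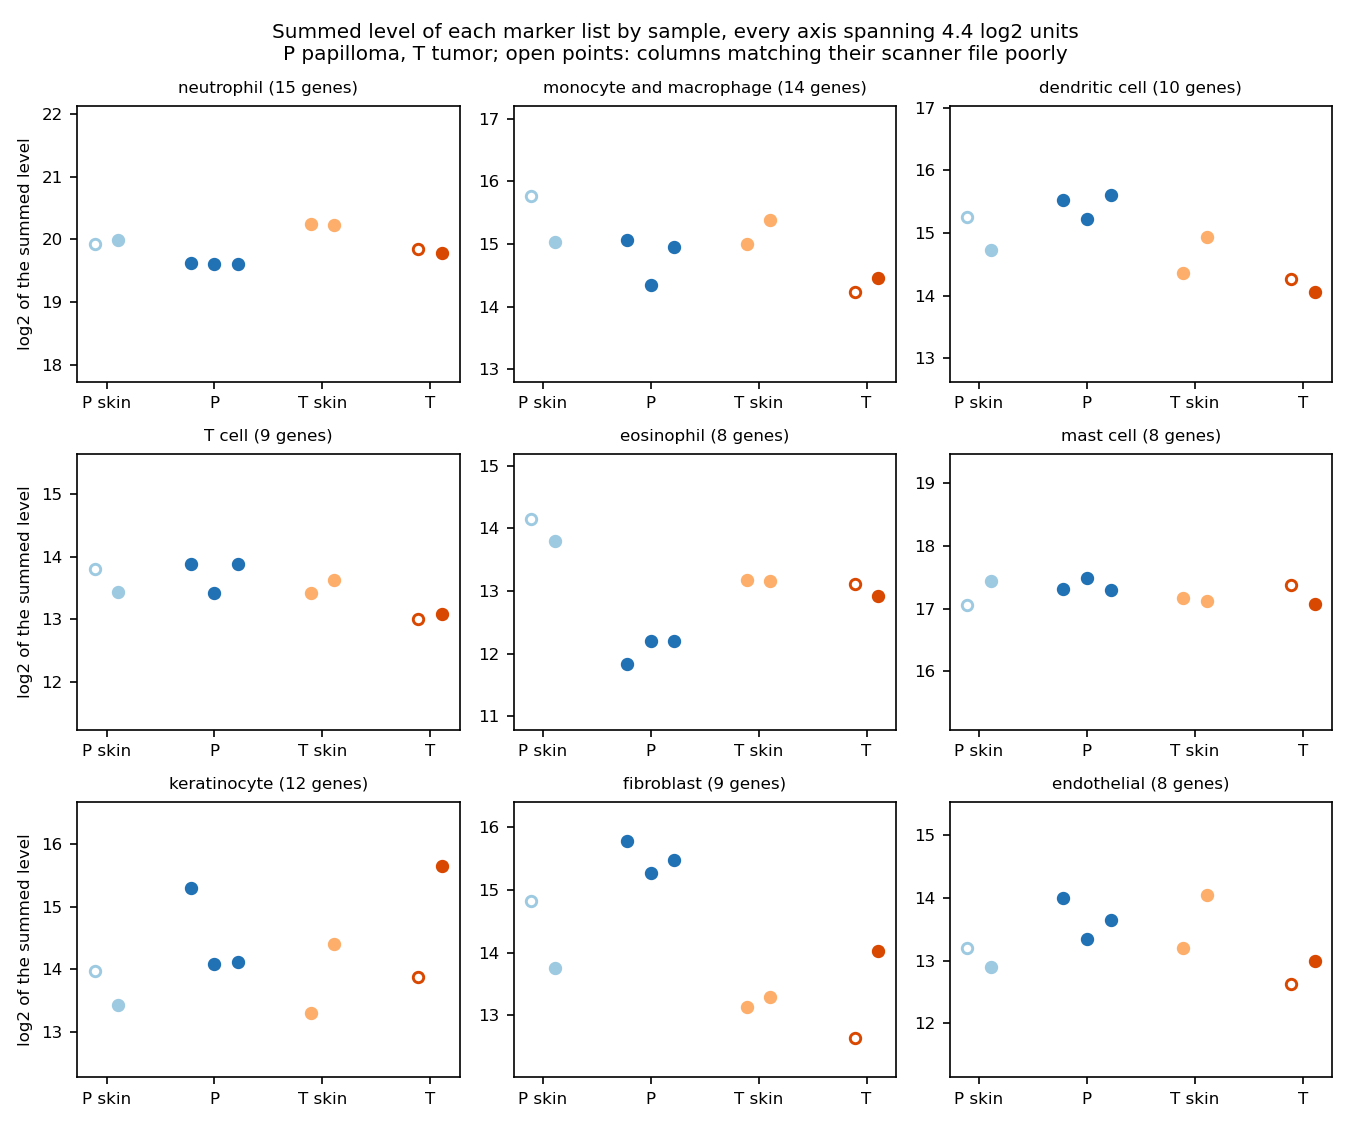
Log2 of the summed level of each marker list (vertical axis, 4.4 log2 units in every panel) in each sample by group (horizontal axis), with open points for papilloma skin 1 and tumor 1. Neutrophil sums run from 19.61 to 19.85 in the lesions and from 19.93 to 20.25 in the skins, while fibroblast sums are highest in papilloma.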

How the data were processed

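Neutrophils of 4 groups were measured on 9 arrays (SurePrint G3 Mouse GE 8x60K, Cy3), read per the file headers by Agilent Feature Extraction with probe coordinates on mm9. The deposited table holds log2 values. The authors describe quantile normalization in limma and a slide correction with ComBat, and which of these steps the table holds is not stated. Per the file headers, the scanner files hold spot intensity, background-subtracted and detrended within each array but not normalized between arrays, and flags for spots well above background, saturated or uneven.

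Members and lists were chosen with earlier results of these data known. Each comparison was fitted with limma 3.58.1 in R 4.3.3, reading files with version 1.17.8 of data.table, on the value table, with all 9 samples in 4 groups, residual df of 5 and p adjusted by Benjamini-Hochberg over 55681 probes; summaries were made with pandas 2.3.3 and numpy 2.4.6 under Python 3.11.15, and plots with matplotlib 3.10.9. The fit and an own implementation of ComBat were tested on simulated data. Comparisons that use the same arrays are not independent: tumor against papilloma shares arrays with both lesion comparisons, and the difference between lesion effects with all.

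Named genes were all member probes, the pathway genes called in a comparison (at most 8 per comparison by size of change) with 3 uncalled genes of the highest level, the most abundant and the defining genes of each marker list, and for each member the 3 other named genes of the highest Pearson r. Some items that this rule names are not reported here. A list gene was read by its probe of the highest mean level. Promoter motifs were searched as TGANTCA for AP-1 and TATAAA for TATA, with STAT and C/EBP written with unknown bases in between.

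The alternatives were the scanner files with quantile normalization alone, with ComBat or with slide as a block, their 75th percentile scaling without and with normexp background correction (offset 50), the value table with slide or replicate number as a block, no level minimum, no fold minimum, the median over a gene's probes, bright probes alone, the 7 columns with a rho of at least 0.9, and each sample left out in turn. Quantile normalization over the 6 arrays whose spike-in slope reached 0.9 was added after seeing the data.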

Additional observations from a re-analysis of the deposited data

How the results depend on the processing

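The count of called member probes depended on the source of the values. In tumor over tumor skin it was 3 of 15 from the value table and 0 by limma under each of the 6 settings that start from the scanner files. In papilloma over papilloma skin it was 5, against 5 from the scanner files with ComBat and 0 under the other 5 scanner settings, of which the quantile fit limited to arrays whose spike-in slope reached 0.9 was chosen after seeing the data. On the value table the papilloma count was 3 with the replicate block, 4 with slide as a block and 3 without the poorly matching columns, and the tumor count 3, 2 and 4, while these settings called 552, 981 and 1018 of all 55681 probes in papilloma and 737, 209 and 1759 in tumor. In papilloma the median over a gene's probes called 2 genes, against 3 genes with a called probe. In tumor it called Csf1 and Csf2rb2 (2.52 and 1.19, adjusted p = 0.000305 and 0.0455), against 1 gene with a called probe. With 1 sample left out the counts ran from 4 to 7 in papilloma and from 3 to 4 in tumor, and those of all probes from 1262 to 1877 and from 804 to 2382. In tumor against papilloma, between the skins and for the difference of lesion effects limma called 0 members in every setting that kept replicates in each group. Of these settings, those from the scanner files and slide as a block called 0 of all probes in these comparisons too. Their member counts of 0 therefore show no stability. Dropping the level or fold minimum reuses the same fit, where no member passed the adjusted p, so those counts of 0 were fixed in advance. The 8 called results gave 172 alternative values, of which 0 had the other sign and 52 lost the call. Of 1443 alternative values of results that were not called, 207 had the other sign. In both sets some values repeat the reported change by construction. These come from dropping a minimum, from bright probes alone, or from leaving out a sample of a group outside the comparison. Their sign could not differ, and dropping a minimum could not lose a call. The change of Dok2 in papilloma, -1.68 as reported, was 0.0541 from the scanner files with ComBat, 0.0671 with slide as a block, 0.45 with the 75th percentile and 0.42 with normexp. The 75th percentile scaling moved the median of all probes by -0.41 in papilloma over papilloma skin, and relative to it the changes were 3.50, 4.61 and 4.47 for Csf1, 1.99 for Csf3 and 2.72 for Csf2rb2; in tumor the median moved by -0.15 (-0.49 with normexp), and the relative Csf1 changes were 1.34, 2.35 and 2.19. Whether replicate numbers pair the samples is not known: deviations from the group means correlated with r from 0.16 to 0.53 between same-numbered samples of a lesion and its skin, and from -0.96 to -0.14 between those of papilloma and tumor or their skins. The causes of these differences were not tested. Where a fit without 1 or both of the poorly matching columns, or any other sample, left a group with 1 sample, that sample was assumed to vary like the other groups. The scanner signal over background limits the readings of Csf2 on 2 arrays and of Csf3 on 1.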
